A study of Mus musculus with 8 samples.

Results

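Lyve1, Stab1, Stab2, Mrc1, Plvap, Maf and Fcgr2b were read as a group of genes linked to scavenger endothelium, the vessel cells that clear material from blood. They were chosen as a list by gene symbol, and all 7 were found among 24454 gene rows. All 7 also passed the filter on low counts, which left 12136 genes for testing. RNA came from yolk sacs of mouse embryos at stage E11.5, of strain C57BL/6, in which 1 allele of the microRNA locus miR144/451 carried GFP, a green fluorescent reporter. The 3 sorted populations all carried this allele and were untreated. Endothelial pools held 25 VE-Cadherin positive, GFP negative cells (replicates 1 to 3). Erythroid pools held 25 VE-Cadherin negative, GFP positive cells (replicates 4 to 6). Double positive pools held 24 cells with both signals (replicates 7 and 8). A pool mixes the RNA of its cells, and the labels do not say whether pools came from separate embryos. The p-values therefore measure the spread between pools, which may be technical.

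As background, sinusoidal vessels have a leaky wall and take up modified proteins, lipids and matrix fragments through scavenger receptors. Lyve1 and Stab2 encode receptors for hyaluronan, a long sugar polymer of the matrix, and Stab1 is the relative of Stab2. Mrc1 encodes the mannose receptor and Fcgr2b an inhibitory receptor for immune complexes. Plvap encodes the protein that forms the diaphragms of vessel pores and caveolae, and Maf is a transcription factor expressed in liver sinusoidal endothelium. Macrophages are known to carry Mrc1, Stab1, Maf and Fcgr2b as well, and some carry Lyve1.

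On GRCm38 the members lay on 6 chromosomes, with all but Mrc1 on the minus strand. Lyve1 (ENSMUSG00000030787.4) lay on chromosome 7, 110850607 to 110863239. Stab1 (ENSMUSG00000042286.13) lay on chromosome 14, 31139013 to 31168641, and Stab2 (ENSMUSG00000035459.18) on chromosome 10, 86841198 to 87008025. Mrc1 (ENSMUSG00000026712.3) lay on chromosome 2, 14229392 to 14332057, on the plus strand. Plvap (ENSMUSG00000034845.6) and Maf (ENSMUSG00000055435.6) lay on chromosome 8, at 71497765 to 71511752 and 115682942 to 115707794. Fcgr2b (ENSMUSG00000026656.15) lay on chromosome 1, 170958617 to 170976547. The strand setting of the counting is not given in the sources used here. In these counts, reads from overlapping genes on opposite strands cannot be told apart. Exons of Stab2, Maf and Fcgr2b overlap those of antisense genes on the other strand (Gm16268, Gm15655 and Gm38204), which have no row of counts. Exons of Stab1 overlap those of Nt5dc2 on the other strand. Nt5dc2 had 26.8 to 49.6 CPM in the erythroid pools, where Stab1 had 0 counts.

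The promoters of Stab1, Stab2 and Mrc1 are shown as those of the receptor genes with a matched entry that were high in endothelial pools and had at most 1 count in any erythroid pool. Sequences are from RefSeq on GRCm38.p6, 5′ to 3′ along the gene, and end before the annotated RefSeq start. For Stab2 the stretch ends before the GENCODE start, which lies 83 bases further upstream. The Mrc1 stretch runs 22 bases past the GENCODE start. Of the members, 4 matched the promoter table, Fcgr2b being the other, and Lyve1, Plvap and Maf did not match. Capitals mark motifs found on either strand. These were AGGAAG (ETS type, read as CTTCCT on the other strand), TGCTGA (MAF type), AGGTCA (nuclear receptor type) and CAGATG (E-box type). None of the marked motifs overlapped another.
Stab1, chr14:31168642-31168891, minus strand: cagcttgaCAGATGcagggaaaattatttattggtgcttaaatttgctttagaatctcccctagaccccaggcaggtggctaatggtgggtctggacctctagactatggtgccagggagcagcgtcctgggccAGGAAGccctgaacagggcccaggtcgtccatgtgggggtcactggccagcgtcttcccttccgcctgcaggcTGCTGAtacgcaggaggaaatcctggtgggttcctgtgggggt
Stab2, chr10:87008026-87008192, minus strand: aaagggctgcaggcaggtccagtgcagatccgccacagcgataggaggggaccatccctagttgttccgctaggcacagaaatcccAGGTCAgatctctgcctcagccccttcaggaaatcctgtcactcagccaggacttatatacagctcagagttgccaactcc
Mrc1, chr2:14229164-14229413, plus strand: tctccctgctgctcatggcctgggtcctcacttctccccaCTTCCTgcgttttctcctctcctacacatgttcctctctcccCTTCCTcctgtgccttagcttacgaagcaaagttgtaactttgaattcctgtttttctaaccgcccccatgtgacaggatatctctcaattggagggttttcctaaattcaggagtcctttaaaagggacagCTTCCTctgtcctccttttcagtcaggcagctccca
Mrc1 held AGGAAG at 3 places, and Stab1 held it at 1 place, 116 bases before the start. Stab2 held it at 1 place, 40 bases before the RefSeq start and outside the stretch shown. The motif was in 29.6% of 32536 promoter windows of 250 bases, with repeated sequences counted once and 1 chromosome left out. TGCTGA, in 16.1% of windows, and CAGATG, in 14.4%, each occurred at 1 place in Stab1. AGGTCA, in 14.0% of windows, occurred at 1 place in Stab2. The GATA-type motif AGATAA, in 3244 of those windows, and the SOX-type motif ACAAT, in 27.4%, did not occur in these 3 windows. A match is a description of the letters and not a binding site.

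Total counts ran from 3723128 to 7618444 per library. Levels are normalised read counts (CPM), counts scaled to a common library size with TMM factors, which limit the effect of a few very abundant genes. Such scaling matters here because globin genes took 54.5% to 56.5% of erythroid counts. The endothelial label was met by its markers, with all 25 core endothelial genes detected and summed levels of 5012 to 7162 CPM. Their sum was 928 and 1230 CPM in the double positive pools. Macrophage genes, a list of 20, summed to 1388 to 4241 CPM in endothelial pools, 26.2 and 106 CPM in double positive pools and 0 in erythroid pools. Visceral endoderm genes, a list of 18, summed to 55.1 to 159 CPM in endothelial and to 104400 and 101700 CPM in double positive pools.

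Plvap and Lyve1 were among the abundant transcripts of the endothelial pools, Stab2 and Mrc1 followed at like levels, Stab1 was lower, Maf was moderate and Fcgr2b was close to the limit of detection. Levels of different genes are compared per kilobase of annotated exon (RPKM). In endothelial pools Plvap stood at 520 ± 115 RPKM (SD, n = 3), rank 16 of 11754 genes with a length, and Lyve1 at 342 ± 25.0 RPKM, rank 32. Stab2 stood at 108 ± 9.84 RPKM and Mrc1 at 102 ± 22.3 RPKM. Stab1 stood at 39.3 ± 13.5 RPKM, Maf at 12.5 ± 2.42 RPKM and Fcgr2b at 0.348 ± 0.421 RPKM. The ranges of Stab2 and Mrc1 overlapped and their order turned with the longest transcript as length (115 and 121 RPKM), while every other pair of neighbours in this order kept apart.

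In the double positive pools the order per length differed at Stab1 and Maf. Plvap stood at 45.1 ± 11.2 RPKM (SD, n = 2), Lyve1 at 24.0 ± 1.64, Stab2 at 21.97 ± 3.16 and Mrc1 at 12.4 ± 2.82 RPKM. Maf, at 8.54 ± 1.70 RPKM, lay above Stab1, at 5.11 ± 1.24 RPKM, with no overlap. Fcgr2b stood at 0.382 ± 0.306 RPKM. The ranges of Lyve1 and Stab2 overlapped.

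**Figure D1:**
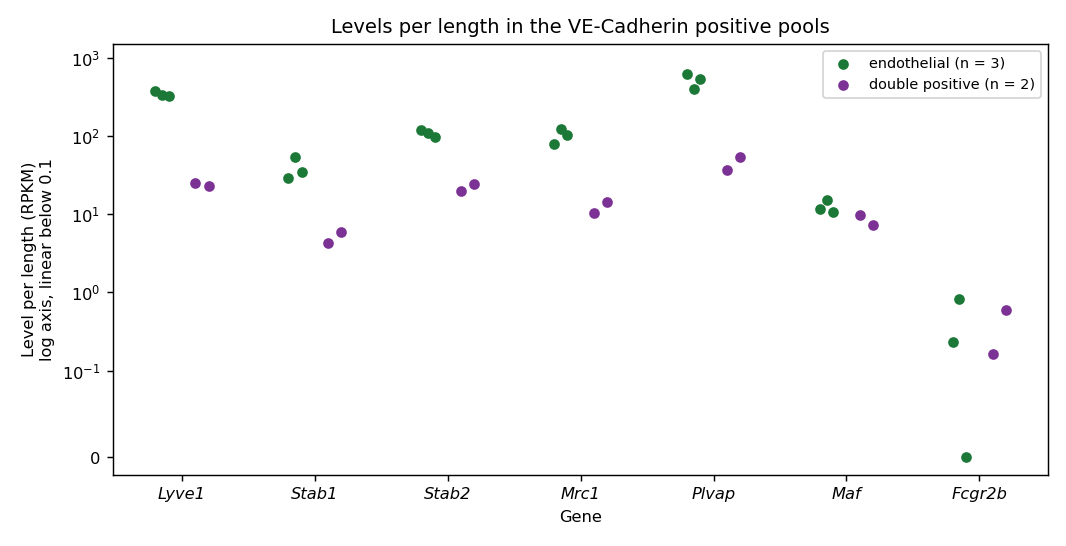
Level per length (RPKM, log axis that is linear below 0.1) of each member in 3 endothelial and 2 double positive pools, 1 point per pool. Plvap and Lyve1 are highest in endothelial pools, and Maf has the closest levels in both populations among members above 1 RPKM.

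The comparison of erythroid with endothelial pools asked which members red cell precursors lack. Of the 7 members, 6 fell, against 26.6% of all 12136 genes tested that were lower, and Fcgr2b did not pass. The endothelial values for Lyve1 were 1083, 963 and 951 CPM, and the 3 erythroid pools had 0 counts. This was at least 3499-fold lower (adjusted p = 3.85e-07, edgeR's quasi-likelihood test with Benjamini-Hochberg adjustment), taking 3 counts over the group as the floor. Such floors and the intervals given here cover counting error only, since reads carry no molecular identifiers.

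The other receptors and the diaphragm gene followed the same pattern, with the erythroid pools at or next to 0. Stab2, at 1030, 953 and 858 CPM in endothelial pools, had 1 erythroid count, in replicate 5, and was 10020-fold lower (95% counting interval 1797 to 395600, adjusted p = 1.93e-07, edgeR). Plvap was at 1243, 791 and 1066 CPM against 0, at least 3621-fold lower. Mrc1 was at 505, 787 and 662 CPM against 0, at least 2282-fold lower. Stab1 was at 299, 561 and 353 CPM against 0, at least 1417-fold lower. Maf was at 95.9, 125 and 86.9 CPM against 0, at least 359-fold lower. Across Plvap, Mrc1, Stab1 and Maf the adjusted p ran from 3.01e-06 to 1.09e-05 (edgeR). Fcgr2b had 1.32, 4.73 and 0 CPM in endothelial pools, from 10, 29 and 0 counts, against 0 in erythroid pools (adjusted p = 0.0789, edgeR). In 6 of 7 members the groups did not overlap, with the erythroid pools lower, as for 32.1% of all genes tested. The members' median log2 difference was −14.00, or −11.16 once each gene without erythroid counts was given its bound, against −0.36 and −0.34 over all genes tested.

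**Figure D2:**
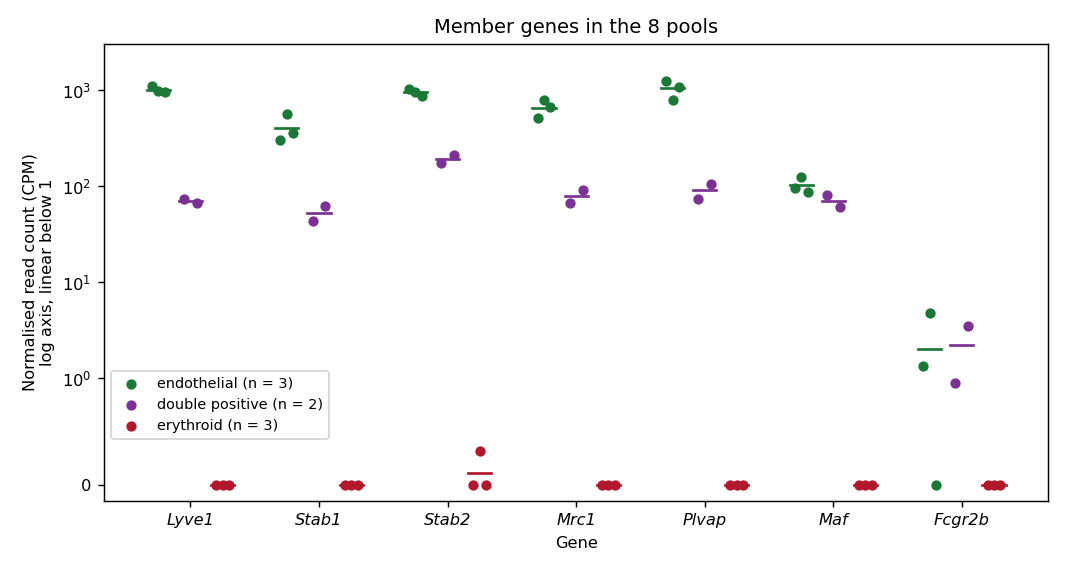
Normalised read count (CPM, log axis that is linear below 1) of each member in every pool, 1 point per pool, with bars at the group means. The erythroid pools sit at 0 apart from 1 count of Stab2, and the double positive pools sit below the endothelial pools for 6 of the 7 genes.

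The double positive pools asked whether transcripts of these genes were present in a sort for both signals. For 6 of the 7 they were present at levels below those of the endothelial pools and above those of the erythroid pools. Among these, the difference of Maf from the endothelial pools did not pass the test. Against the erythroid pools 6 of 7 members were higher, where 31.5% of all genes tested were. Lyve1 stood at 73.4 and 66.6 CPM in replicates 7 and 8 against 0, at least 245-fold higher (adjusted p = 4.57e-06, edgeR). Stab2 was 2015-fold higher (95% counting interval 362 to 79590), and Plvap, Mrc1, Maf and Stab1 were at least 314-fold, 276-fold, 247-fold and 184-fold higher. Fcgr2b, at 0.956 and 3.46 CPM against 0, did not pass (adjusted p = 0.0802, edgeR).

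Against the endothelial pools, Lyve1, Plvap, Mrc1, Stab1 and Stab2 fell, and Maf and Fcgr2b did not pass. These 5 of 7 compare with 6.92% of all genes tested that were lower, and with 22 of 25 core endothelial genes. In a bulk pool, fewer cells of a type and less RNA per cell cannot be told apart. Other cell type lists were higher in the same double positive pools. These were 18 of 18 visceral endoderm genes, 13 of 14 erythroid genes (79160 and 138100 CPM in sum, against 60.8 to 79.7 in endothelial pools) and 7 of 7 tested mesenchyme genes (449 and 409 CPM, against 3.39 to 8.64). Globin genes took 8.86% and 14% of the counts there. The part of these cell types in the members' fall was not tested. Lyve1, the hyaluronan receptor, had the largest fitted fall of the members, about 1 SE beyond that of Plvap. Without double positive replicate 8 that order turned, with −3.78 for Lyve1 and −3.82 for Plvap. The Lyve1 values of 73.4 and 66.6 CPM stood against 951 to 1083 CPM, a 14.3-fold lower level (log2 difference −3.83, SE 0.18, adjusted p = 2.98e-05, n = 2 and 3, edgeR). Stab2 encodes a receptor for the same ligand. Its levels of 173 and 212 CPM stood against 858 to 1030 CPM, 4.92-fold lower (log2 difference −2.30, SE 0.23, adjusted p = 0.000232, edgeR).

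Plvap, the diaphragm gene, stood at 73.8 and 105 CPM, below its 791 to 1243 CPM in endothelial pools (log2 difference −3.53, SE 0.28, adjusted p = 0.000358, edgeR). Mrc1 stood at 66.1 and 91.5 CPM, 8.26-fold lower (log2 difference −3.05, SE 0.28, adjusted p = 0.000582, edgeR). Stab1 stood at 43.6 and 61.6 CPM, 7.69-fold lower (log2 difference −2.94, SE 0.35, adjusted p = 0.00189, edgeR). For these 5 genes every double positive pool lay below every endothelial pool.

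Maf, the transcription factor, stood at 80.3 and 60.5 CPM against 86.9 to 125 CPM, also with no overlap. Its log2 difference of −0.54 (SE 0.29) did not pass (adjusted p = 0.244, edgeR). Under library size alone, without TMM factors, it was −1.17 and passed (adjusted p = 0.0295, edgeR). With globin genes removed and TMM factors kept it was −0.57 (adjusted p = 0.223, edgeR). Fcgr2b had 0.956 and 3.46 CPM, from 5 and 17 counts, and its log2 difference was 0.13 with an SE of 1.77. Over all members, the double positive pools lay below the endothelial pools without overlap for 6 of 7, against 24.6% of all genes tested. The members' median log2 difference was −2.94, against 0.06 over all genes tested and −2.63 for the 25 core endothelial genes.

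**Figure D3:**
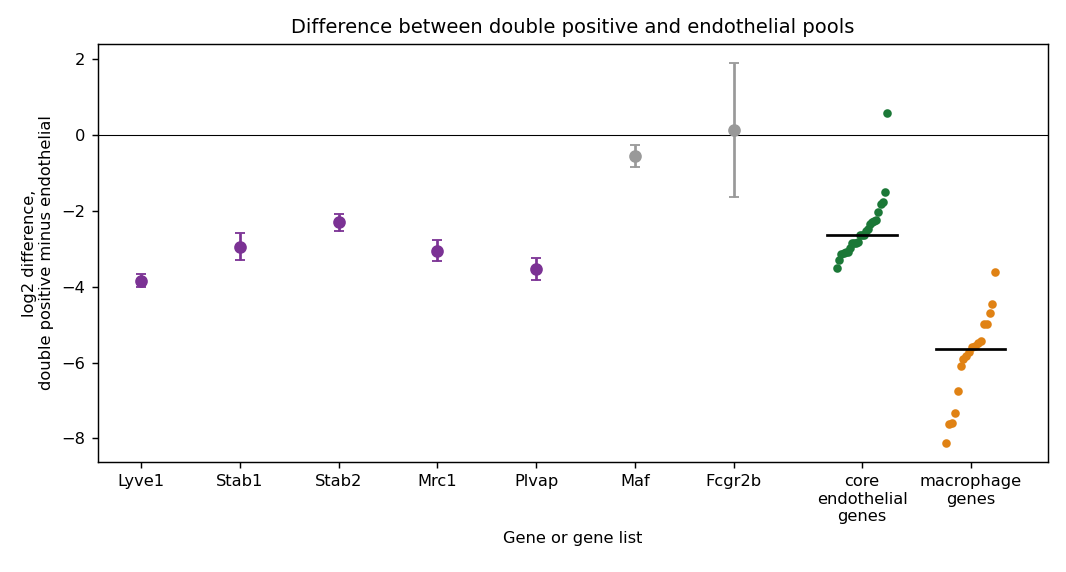
log2 difference of double positive (n = 2) minus endothelial (n = 3) pools, with bars of 1 SE for each member. Purple members passed the test and grey ones did not. The dots at the right are single core endothelial genes (25) and tested macrophage genes (18), with lines at their medians of −2.63 and −5.64.

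Since vessel transcripts as a whole were lower in double positive pools, the members were also set against the core endothelial genes of the same pools. The summed counts of 23 such genes replaced the library size in a fit of the 5 VE-Cadherin positive pools. Relative to this sum Lyve1 and Plvap were lower and Maf was higher, and the other 4 members did not pass. Of the 25 core endothelial genes, 1 was lower and 3 were higher in this fit. The lower one was Eng, named after its values were seen (log2 difference −0.97, SE 0.34, adjusted p = 0.0268, edgeR). Its difference was close to that of Plvap. Lyve1 was 2.39-fold lower relative to the sum (log2 difference −1.26, SE 0.30, adjusted p = 0.00447, edgeR). Its counts were 17.4%, 20.7% and 14.4% of the sum in endothelial pools and 8.45% and 6.20% in double positive pools. Plvap was 1.94-fold lower (log2 difference −0.95, SE 0.26, adjusted p = 0.0101, edgeR), with 20.01%, 17.0% and 16.1% of the sum in endothelial and 8.49% and 9.81% in double positive pools. Over all 11874 genes in this fit, 0.817% were lower and 73.9% higher. Without replicate 8 neither call held (adjusted p = 0.0719 and 0.0604, edgeR), and without replicate 7 that for Plvap did not (adjusted p = 0.119, edgeR).

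Maf was 4.03-fold higher relative to the core endothelial sum (log2 difference 2.01, SE 0.39, adjusted p = 0.00158, edgeR). Its counts rose from 1.54%, 2.68% and 1.31% of that sum to 9.24% and 5.63%, and the call held with each pool left out in turn (adjusted p = 0.000402 to 0.0229, edgeR). The share of 73.9% of genes higher in this fit means that such a call is common. Visceral endoderm genes were high in the same double positive pools, at 104400 and 101700 CPM in sum, and their part in the Maf level was not tested. Stab2 was at 12.98% to 20.4% of the core sum in endothelial and 19.9% and 19.7% in double positive pools (log2 difference 0.25, SE 0.28, adjusted p = 0.435, edgeR). Mrc1 (−0.53, SE 0.35) and Stab1 (−0.46, SE 0.43) had adjusted p of 0.195 and 0.347 (edgeR). Fcgr2b (2.42, SE 1.64) had an adjusted p of 0.206, which was 0.0370 without endothelial replicate 2 (edgeR).

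**Figure D4:**
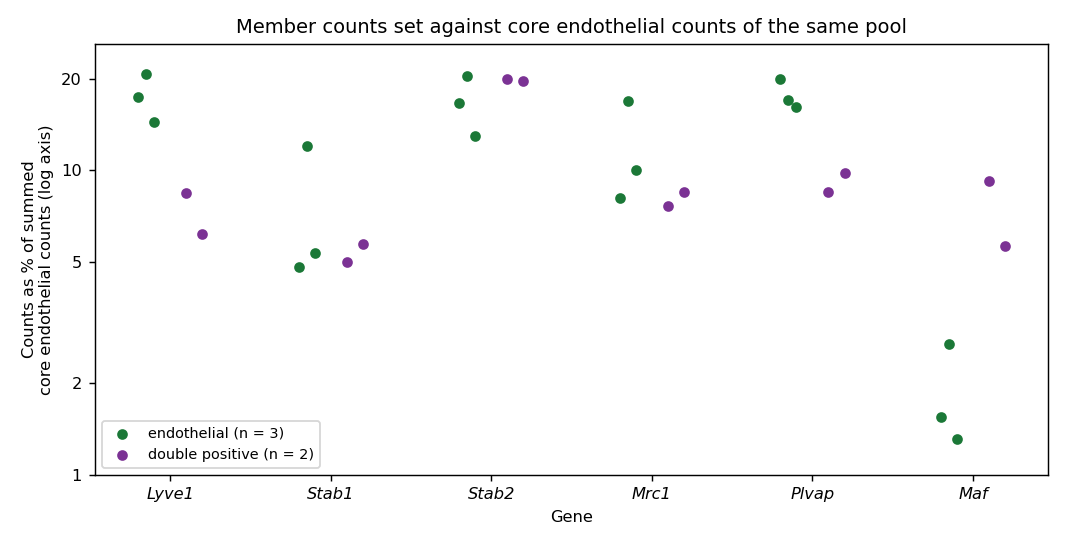
Counts of 6 members as a percentage of the summed counts of 23 core endothelial genes in the same pool (log axis), 1 point per pool. Lyve1 and Plvap are lower in both double positive pools than in every endothelial pool, Maf is higher, and Stab2 lies within its endothelial range.

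The ratio to Cdh5, the gene of the VE-Cadherin protein used for sorting, gave each pool a value free of library scaling. Lyve1 had 4.64, 5.58 and 4.32 reads per Cdh5 read in endothelial pools and 1.60 and 1.19 in double positive pools, 3.50-fold fewer. Maf had 0.411, 0.724 and 0.395 reads per Cdh5 read against 1.75 and 1.08, 2.80-fold more. The groups did not overlap for 6 of 7 members, in both directions. The same share over all genes was not computed, so this count cannot be set against a background. With 3 against 2 pools an exact two-sided permutation test cannot go below p = 0.1, reached by Lyve1, Plvap and Maf, and adjusted over 7 members it was 0.233. Per read of Pecam1, an adhesion gene that fell more than Cdh5, the log2 change of Stab1, Stab2 and Mrc1 turned from −0.88, −0.28 and −1.01 to 0.18, 0.79 and 0.05. Lyve1 and Plvap kept their direction at 1.67-fold and 1.35-fold fewer reads per Pecam1 read, against 3.50-fold and 2.83-fold fewer per Cdh5 read. Maf had 5.88-fold more reads per Pecam1 read. The ratio of Lyve1 to Stab2 counts, chosen after its values were seen, was 1.05, 1.01 and 1.11 in endothelial and 0.425 and 0.314 in double positive pools.

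Within the endothelial pools 3 of the 6 members above 10 CPM were highest in replicate 2, the pool with the most macrophage transcripts. The macrophage list summed to 1407, 4241 and 1388 CPM in replicates 1, 2 and 3, and all 16 of its genes above 10 CPM were highest in replicate 2. The megakaryocyte and platelet list (504, 943 and 569 CPM) and the visceral endoderm list (55.1, 159 and 76.3 CPM) were also highest there. Stab1, Maf and Mrc1 were also highest there, at 1.72, 1.37 and 1.35 times their mean in replicates 1 and 3. Fcgr2b had 29 of its 39 endothelial counts in that pool. Lyve1 and Stab2 stood at 0.947 and 1.01 times, and Plvap at 0.685 times, the latter near Cdh5 at 0.761 times. Of the 24 core endothelial genes above 10 CPM, 0 were highest in replicate 2, and their median was 0.729 times. In the caveola and vesicle coat list 7 of 15 genes above 10 CPM were highest in replicate 2. In the list of other scavenger receptor and lectin-like genes 5 of 11 were, so the members' share was near that of these lists. The share over all genes was not computed. With 1 such pool no test could be made. The part of RNA from these other cell types in the 4 members' levels was not tested. Without replicate 2 the log2 differences of double positive from endothelial pools for Stab1 and Mrc1 were −2.64 and −2.90 (adjusted p = 0.00384 and 0.00268, edgeR).

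**Figure D5:**
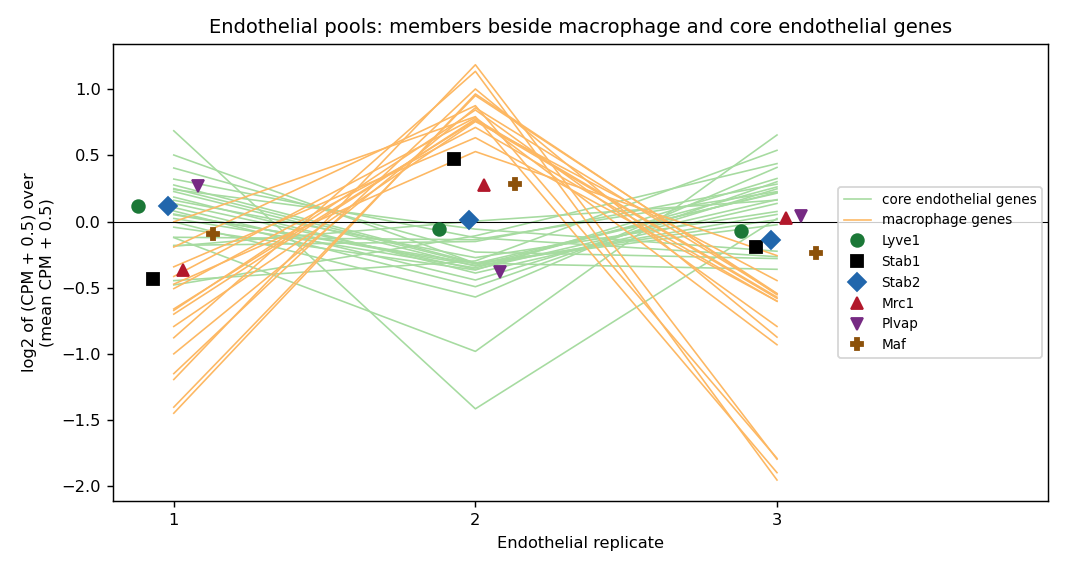
log2 of each gene's CPM + 0.5 over its mean + 0.5 in the 3 endothelial pools. Symbols are 6 members, lines join the values of single macrophage (orange) and core endothelial (green) genes, and the pools have no order. Stab1, Mrc1 and Maf are highest in replicate 2 with the macrophage genes, and Plvap is lowest there.

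In the double positive pools Mrc1 was measured beside a low macrophage signal. Of the 20 macrophage genes, 15 had 0 counts in replicate 7, among them Adgre1, C1qa, C1qb and Ptprc, and 3 had 0 counts in replicate 8. Csf1r, which encodes the growth factor receptor of macrophages, made up 22.4 of the 26.2 CPM in replicate 7 and stood at 19.0 CPM in replicate 8. Adgre1, which encodes the surface antigen of macrophages, had 73.7, 148 and 85.6 CPM in endothelial and 0 and 1.02 CPM in double positive pools. Mrc1 had 6.85, 5.32 and 7.73 reads per Adgre1 read in endothelial pools. In double positive pools it had 346 reads against 0 in replicate 7, a ratio of at least 115 by the floor of 3 counts, and 89.8 per read in replicate 8. Per Csf1r read, Mrc1 had 5.32, 1.61 and 3.84 reads in endothelial and 2.96 and 4.83 in double positive pools, and these ranges overlapped. Both ratios were chosen after their values were seen. Cd163, a macrophage scavenger receptor gene, had counts in 1 pool, endothelial replicate 2 (4.07 CPM).

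Other genes of sinusoidal and venous vessels went with the members in part. Of 18 tested of 22 in the list, 12 fell and 1 rose in double positive against endothelial pools. Over all genes tested 6.92% were lower and 14.6% higher, and 22 of 25 core endothelial genes fell. Nr2f2 stood at 24.9 CPM in endothelial and 22.4 CPM in double positive pools. Dpp4 stood at 63.9 and 77.5 CPM, and both genes were named after their values were seen. The part of other cell types in the double positive levels of Nr2f2 and Dpp4 was not tested. Gpr182, a receptor gene of sinusoidal endothelium, fell from 372 to 56.4 CPM, and Kdr, the VEGF receptor gene, from 287 to 40.3 CPM (adjusted p = 0.000351 and 0.00351, edgeR). Emcn, endomucin of veins and capillaries, had 512, 119 and 323 CPM against 27.7 and 106 CPM and did not pass (adjusted p = 0.0819, edgeR). The gene that rose was Gata4, named after its values were seen, with 17.0 and 6.52 CPM against 0 in endothelial pools. Gata4 is also known in visceral endoderm, and 18 of 18 genes of the visceral endoderm list were higher in the same pools. The part of that cell type in the Gata4 level was not tested. The liver sinusoid gene Clec4g, also named after its values were seen, had counts only in endothelial replicate 2 (3.42 CPM). Prox1, the lymphatic regulator, had 12 counts in endothelial replicate 2, 0 in replicates 1 and 3, and 1 and 3 counts in the double positive pools. Its highest value was in erythroid replicate 5, with 36 counts (11.4 CPM).

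In a list of scavenger receptor and lectin-like genes outside the members, 6 of 14 tested of 20 fell and 0 rose. Over all genes tested, 6.92% were lower and 14.6% higher in double positive against endothelial pools. Clec14a and Cd93, endothelial lectin-like genes, fell from 540 to 66.5 CPM and from 330 to 88.0 CPM. Cd36, the fatty acid and lipoprotein receptor, fell from 323 to 53.0 CPM. The adjusted p of Clec14a, Cd93 and Cd36 were 0.000194, 0.00365 and 0.000358 (edgeR). Msr1, a macrophage scavenger receptor gene, had 17.3, 38.9 and 3.72 CPM against 0 and 0.815 CPM and did not pass (adjusted p = 0.0544, edgeR). In the mannose receptor family, Mrc2 had counts only in double positive replicate 7 (0.956 CPM). Ly75 went the other way from Mrc1, at 2.38, 0 and 0 CPM in endothelial and 45.7 and 36.9 CPM in double positive pools (adjusted p = 0.0413, edgeR). Pla2r1 stayed at or below 5.42 CPM in every pool.

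In the hyaluronan list, which holds Lyve1 and Stab2, 5 of 12 tested genes of 20 fell and 1 rose. The 5 include both members, and over all genes tested 6.92% were lower and 14.6% higher. Tmem2, a cell surface protein linked to hyaluronan breakdown, fell from 178 to 52.7 CPM and Cd44, a hyaluronan receptor, from 85.0 to 10.4 CPM (adjusted p = 0.0131 and 0.00385, edgeR). Cd44 is also expressed by blood cells. Hyal2, a hyaluronidase gene, had 135, 74.6 and 162 CPM against 50.1 and 47.5 CPM and did not pass (adjusted p = 0.107, edgeR). Of the caveola and vesicle coat genes, 10 of 16 fell and 1 rose, beside the same background. Cav1, the caveolin gene, had 204, 73.3 and 344 CPM against 32.3 and 34.9 CPM (adjusted p = 0.0281, edgeR). Sdpr, a caveola coat gene, fell from 381 to 45.7 CPM and Ap2s1, a clathrin adaptor subunit, from 370 to 216 CPM. Their adjusted p were 0.00329 and 0.0367 (edgeR). Dab2, an endocytic adaptor gene, had 706, 1148 and 696 CPM against 725 and 628 CPM (adjusted p = 0.522, edgeR). The gene that rose was Cltc, the clathrin heavy chain gene, named after its values were seen, with 347 to 368 CPM against 555 and 530 CPM.

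Among Fc receptor genes and their partners, 4 of 9 tested of 12 fell and 0 rose. The shares over all genes tested were 6.92% lower and 14.6% higher. Fcer1g, a signalling subunit, fell from 290 to 13.4 CPM and Fcrls, a macrophage gene, from 255 to 0.917 CPM (adjusted p = 0.0182 and 0.002, edgeR), both of which also stand in the macrophage list. Fcgr3, an activating receptor gene, had 79.1, 253 and 70.4 CPM in endothelial and 198 and 103 CPM in double positive pools (adjusted p = 0.893, edgeR). Fcgrt, the neonatal Fc receptor gene, had 364, 433 and 315 CPM against 352 and 309 CPM (adjusted p = 0.621, edgeR). Of the MAF and partner transcription factor genes, 1 of 10 tested of 13 rose and 0 fell. That share of risers is no larger than the 14.6% over all genes tested. The riser was Nfe2, an erythroid factor named after its values were seen. Nfe2l2, Nfe2l1 and Bach1, which pair with small MAF proteins, had adjusted p of 0.272 to 0.887 (edgeR).

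The nearest genes in pattern were searched among 3773 genes of at least 50 CPM, by the root mean square difference of centred log2 CPM over 8 libraries. Lyve1 and Plvap were each other's nearest gene (0.25), and Clec14a stood among the 3 nearest of Lyve1, Plvap and Mrc1. Stab1 was nearest to Arhgdib (0.26), then Cd36 and Cd34. Stab2 was nearest to Igfbp4 (0.41), a growth factor binding protein gene that fell 3.43-fold between endothelial and double positive pools. Mrc1 was nearest to Clec14a (0.298), then Stab1 and Esam. Maf was nearest to Itga6 (0.21), Lipa (0.24) and Capn2 (0.32), genes for an integrin chain, the lysosomal acid lipase and a calpain. Fcgr2b had no gene closer than 0.80. These distances are descriptions over pools of 3 populations.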

How the data were processed

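The deposited values were raw read counts per gene symbol for 8 libraries, with no scaling. Per the labels, polyadenylated RNA was amplified by the Smart-seq2 protocol with 14 PCR cycles. The submitters' processing notes name FastQC, HTSeq and mm10. For the aligner, annotation, strand setting and versions, the sources used here give nothing. No pair of replicate libraries held identical counts. Genes were filtered by edgeR's filterByExpr (minimum count 10), scaled by TMM and tested with edgeR 4.0.16 (R 4.3.3) by the quasi-likelihood test, fitting a mean for each population over 8 libraries. Calls used a Benjamini-Hochberg adjusted p under 0.05 over all 12136 genes, two-sided. CPM use TMM effective library sizes, and RPKM divide them by the union of GENCODE M21 exons. The fit relative to core endothelial genes left out Emcn and Kdr. Alternatives used DESeq2 1.42.0, limma 3.58.1 (voom), other scalings, other filters, fewer populations and each pool left out. The fits were tested on simulated data. Figures used matplotlib 3.10.9. The members and the 16 gene lists were chosen with earlier results of these data known. Named genes were the members, the 3 genes per list with the highest mean CPM, a set of marker genes read whatever their values, and the 3 genes nearest each member in pattern. For marker and tissue lists only the sums or the genes a result turns on are given, and 1 gene named by the rule is not reported here.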

Additional observations from a re-analysis of the deposited data

How the results depend on the processing

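Across 8 alternatives of tool, scaling, filter and populations, the calls of Lyve1, Stab1, Stab2, Mrc1 and Plvap held in the 3 comparisons, and also with each pool left out. Library size alone shifted the all-gene median (log2) by −1.54 (erythroid against endothelial), −0.63 (double positive against endothelial) and 0.90 (double positive against erythroid). RLE factors moved it by −0.18, −0.13 and 0.05. Under library size alone 7690 genes were called in erythroid against endothelial pools in place of 4977, and of the genes called, the part that was higher changed from 35.1% to 5.46%, from 67.9% to 37.0% and from 74.9% to 92.4%. With DESeq2 this part changed from 67.9% to 53.5% in double positive against endothelial pools. Among the members, calls in these comparisons changed for Maf and Fcgr2b. Under library size alone Fcgr2b passed in erythroid against endothelial (adjusted p = 0.0298) and in double positive against erythroid pools (adjusted p = 0.0485, edgeR), as it did without endothelial replicate 3 (adjusted p = 0.026 and 0.0307, edgeR). Its log2 difference between double positive and endothelial pools was −0.53 under library size alone and ran from −1.07 to 1.67 with each pool left out. With a minimum count of 50, or with only the erythroid and 1 other population in the fit, Fcgr2b was filtered out and gave no value.

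Leaving out each pool, the genes called ran from 977 to 2892 for double positive against endothelial pools, with 1057 without replicate 7 and 977 without replicate 8, and from 2924 to 5193 for double positive against erythroid pools. A lone double positive pool is assumed to vary like the other groups. Members called relative to core endothelial genes ran from 1 to 4, with 1 without replicate 8, and the value of Stab1 ran from −0.69 to 0.082 (without endothelial replicate 2). With Pecam1 in place of Cdh5 the log2 ratios of Stab1, Stab2 and Mrc1 were 0.184, 0.791 and 0.053. The causes were not tested. No paired analysis was possible because the populations share no replicate number. Fcgr2b, with 39 endothelial and 22 double positive counts in all, is the member whose values depth limits most.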
